A study of Mus musculus with 8 samples.

Results

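The 10 genes described here belong to the mouse major histocompatibility complex (MHC) class I pathway. They were taken by name from the 56980 genes of the count table: the classical heavy chains H2-K1 and H2-D1, the nonclassical heavy chains H2-Q4, H2-Q7, H2-Q10, H2-T22, H2-T23 and H2-M3, the light chain B2m and the peptide transporter subunit Tap1. Regulatory T cells (Tregs), defined in the study as CD4+CD25+ cells, were sorted from peripheral blood of male C57BL/6j mice bought at 8 weeks of age, and their RNA was sequenced after low-input cDNA amplification. The HADA group (high-altitude de-acclimatization, 4 libraries) had lived for 28 days in a hypobaric hypoxia chamber simulating 6000 m and was then returned to normoxia, whereas the control group (4 libraries) had no chamber exposure. The day of sorting and the number of mice per library are not given in the sources used here, so the p-values below measure the spread between these libraries, which may in part be technical. Of the 10 genes, 8 had counts and passed the filter on low counts, and H2-T23 and B2m stood at 0 in every library.

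Class I molecules consist of a heavy chain, a light chain and a short peptide, and they show fragments of the cell's own proteins to other cells. The classical molecules present many different peptides to CD8 T cells and are found on nearly all nucleated cells, T cells included. The nonclassical molecules are less variable, and several have dedicated partners: the product of H2-T23 carries leader peptides of other class I chains to CD94/NKG2 receptors, H2-M3 binds formylated peptides, and H2-T22 is seen by a subset of γδ T cells. Peptides are cut by the proteasome and pumped into the endoplasmic reticulum by Tap1 with its partner Tap2. The heavy chain genes share an upstream region with a κB element, an interferon-stimulated response element (ISRE) and an SXY module, which NLRC5 and the RFX proteins use.

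The upstream region is shown for the 7 heavy chain genes that carry the ISRE letters, because they carry this element in common. Their log2 fold changes between the groups, given below, ranged from -0.28 to 4.86. A link between the letters and these changes was not tested. The sequences are 5′ to 3′ on the strand of the gene. They come from the RefSeq promoter set (GRCm38.p6, 250 bases before to 50 after each gene's start), in which all 10 genes were found, and were placed on GRCm39 by an exact match. In the following lines capitals mark the κB letters of the H2-K1 promoter, GGGGATTCCC, and the ISRE letters GTTTCACTT.
H2-K1, chr17:34219404-34219432, minus strand: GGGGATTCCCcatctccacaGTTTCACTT
H2-D1, chr17:35481899-35481927, plus strand: GGGGATTCCCcatctcctcaGTTTCACTT
H2-Q4, chr17:35598419-35598447, plus strand: ggggatttcccatctccccaGTTTCACTT
H2-Q7, chr17:35657997-35658025, plus strand: tGGGGATTCCCatctccccaGTTTCACTT
H2-Q10, chr17:35780810-35780838, plus strand: gaggactccccatctccccaGTTTCACTT
H2-T22, chr17:36353818-36353846, minus strand: gagagtccctaattggcttaGTTTCACTT
H2-M3, chr17:37581003-37581031, plus strand: attcccccatttcctctgagGTTTCACTT
The second stretch lies nearer to the gene, and capitals mark TGATGAC, letters like those of a cyclic AMP response element (CRE).
H2-K1, chr17:34219350-34219373, minus strand: ccggacactgttgacgcgcagtca
H2-D1, chr17:35481958-35481981, plus strand: cgggacacTGATGACgcgctggca
H2-Q4, chr17:35598478-35598501, plus strand: ccggacacTGATGACttactggca
H2-Q7, chr17:35658056-35658079, plus strand: caggacacTGATGACgtgtaacag
H2-Q10, chr17:35780874-35780897, plus strand: tcggacactgattgaggctatcag
H2-T22, chr17:36353762-36353785, minus strand: ctagatatTGATGACttggcacta
H2-M3, chr17:37581068-37581091, plus strand: ccggatacTGATGACgcttctcca

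Between H2-K1 and H2-D1, the first stretch differed by A18T alone and the second by C2G, T11A, A20T and T22G, counted from 1 at the 5′ end with the H2-K1 base first. Over the 100 bases that hold both stretches the pair was 92% identical. The H2-D1 stretches lie before the RefSeq start but inside the deposited gene span and a GENCODE 5′ exon, and the window around the H2-Q7 stretches occurs 2 times on the chromosome. On either strand of the 300-base windows, the κB letters were present in 3 of the 10 genes (H2-K1, H2-D1 and H2-Q7) and in 0.107% of 32851 RefSeq promoters. The ISRE letters were present in 7 of the 10 and in 0.399% of promoters, the CRE-like letters in 5 of the 10 and in 3.23%, and CCAATCA, the letters around a CCAAT box, in 7 of the 10 and in 7.82%. No matches of different motifs overlapped in these genes. The letters were chosen after the sequences had been viewed, and a match is a description of the window, not a measured binding site. Only these exact letters were searched, so a gene without a match may still carry a variant of the element.

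The libraries differed in depth. Total counts were 22929193 to 28240337 in HADA, and 1477431 in control replicate 1 against 14452433 to 22584062 in the other controls. Mitochondrial genes took 5.02% to 7.59% of counts in HADA and 0.636% to 3.81% in control, and ribosomal protein genes 4.20% to 5.42% and 0.490% to 3.52%, and neither range overlapped. Reads were counted over whole gene spans, introns included, and bases covered by a second gene gave no counts. Treg markers checked the label only in part. Their summed level was 2043 to 5486 CPM (counts scaled to library size, with TMM normalization) in HADA and 290 to 1522 in control. These ranges did not overlap. Foxp3 and Tnfrsf18, whose spans are fully covered by other genes, stood at 0 throughout, and 0 of the 7 tested markers passed the test. Ikzf2, with a span of 156032 bases, held 211 of the 290 CPM in control replicate 2. Cd4 was at 3.73 CPM there and at 4.79 CPM in control replicate 3, against 199 and 220 CPM in control replicates 1 and 4. Its HADA values were 88.0 to 234 CPM. The sum therefore says little about the label in control replicates 2 and 3. Summed levels of the markers of other cells overlapped between the groups. The sum over 6 B cell markers was 1288 to 3634 CPM in HADA and 411 to 3061 in control (Ms4a1 at 0, fully covered), that of 7 myeloid markers 1213 to 3847 and 73.4 to 2054, that of 6 CD8 T and NK markers 79.1 to 935 and 7.70 to 91.0, that of 5 erythroid markers 144 to 2806 and 1023 to 28265 (Alas2 at 0, fully covered), and that of 4 platelet markers 253 to 1604 and 42.1 to 469. These sums cover whole gene spans and no background was taken off, so long genes can add background reads. In control replicate 2, Ebf1, with a span of 390775 bases, held 314 of the 411 CPM of the B cell sum. How much of the marker sums is background was not tested. Cd8b1 was the only one of these markers called by the test described below. The part of these markers, and of the mitochondrial and ribosomal protein shares, in the class I results was not tested. In bulk libraries, fewer cells of a type and less RNA per cell cannot be told apart.

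**Figure D1:**
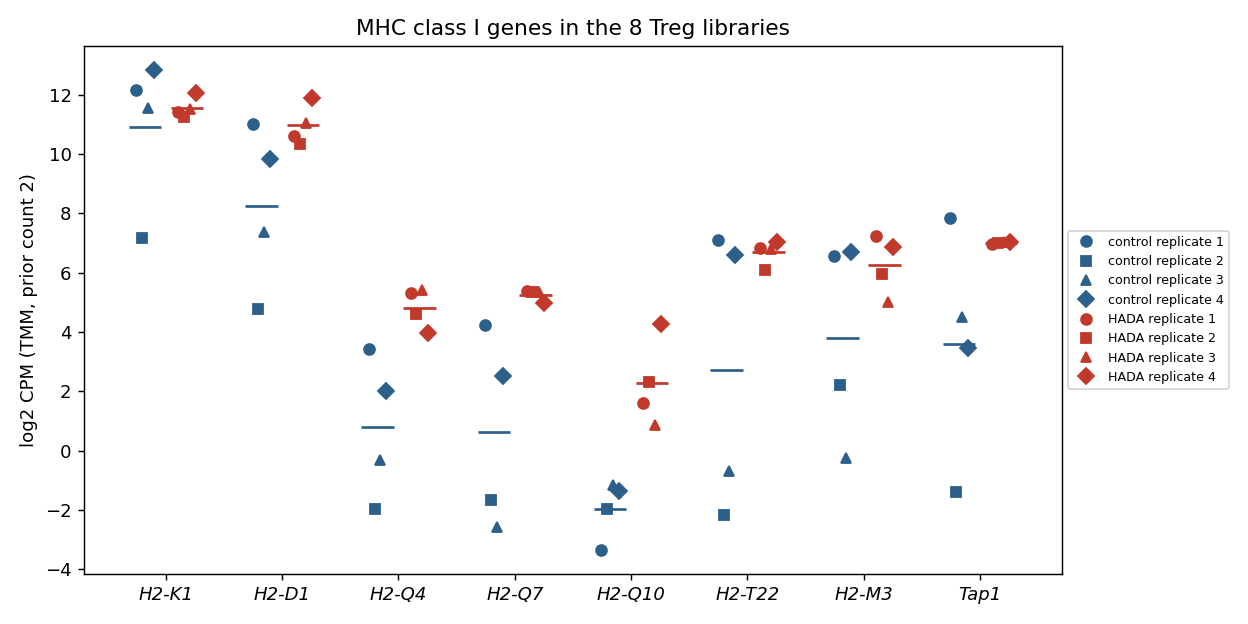
Level of the 8 detected class I genes in each library, in log2 CPM with a prior count of 2. Blue symbols are the 4 control libraries, red symbols the 4 HADA libraries, symbol shapes give the replicate number, and short lines are group means. The HADA points of H2-Q4, H2-Q7 and H2-Q10 all lie above the control points, where the H2-Q10 point of control replicate 1 stands for 0 counts, whereas those of H2-K1 lie inside the control range.

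Across the 8 detected genes, 1 rose in HADA past the thresholds, H2-Q10, and 0 fell, by edgeR's quasi-likelihood test (p adjusted by Benjamini-Hochberg over 21991 genes and required to be under 0.05, with a log2 change of more than 1). Among all genes tested, 1.65% were called higher and 0.477% lower, or 2.13% in all. The fold changes of the 8 genes had a median of 1.23 on the log2 scale, against 0.01 for all genes, and 7 of the 8 were above 0. The HADA libraries lay wholly above the control libraries for 3 of the 8 (H2-Q4, H2-Q7 and H2-Q10), compared with 9.13% of all genes, and wholly below them for 0 of the 8, compared with 5.7%. For H2-Q10 this includes control replicate 1 with 0 counts, a library whose floor of 3 counts lies above 1 of the HADA values. The 3 lie in the Q region of chromosome 17 and share sequence, so they are not independent of each other. All 3 passed the filter on low counts only through their HADA libraries. Among the controls, H2-Q4 had 5 counts in replicate 2 and H2-Q7 had 2 in replicate 3. The absence of overlap for the 3 is therefore a description and lends no support to a difference. DESeq2 called 2 of the genes higher, H2-Q4 and H2-Q10, and 0 lower, where its shares over all genes were 6.27% higher and 10.2% lower. Without control replicate 1, the shallowest library, edgeR called 4 higher (H2-Q4, H2-Q7, H2-Q10 and Tap1), and 0 lower, and the shares over all genes were then 15.5% and 19.7%.

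Per kilobase of exon, H2-K1 and H2-D1 stood far above the other heavy chains in both groups. The mean level of H2-K1 was 970 CPM per kb in HADA and 1180 in control, and that of H2-D1 was 733.5 and 264.5. H2-M3 followed at 49.7 and 27.9, H2-T22 at 31.0 and 17.1 and Tap1 at 21.4 and 10.9. H2-Q7 (8.96 and 1.44) and H2-Q4 (8.71 and 1.09) were next, and H2-Q10 was lowest at 1.64 and 0.0455. Within each of the 8 libraries H2-K1 was above H2-D1, and H2-D1 was above every other gene of the 8. The order of H2-M3, H2-T22 and Tap1, and that of H2-Q7 and H2-Q4, changed from library to library. Because counts include introns, these levels per exon length are approximate.

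H2-K1 encodes the classical heavy chain K (ENSMUSG00000061232, chr17:34214991-34219321, minus strand, GRCm39). It was measured at 2716, 2445, 2956 and 4238 CPM in HADA replicates 1 to 4 and at 4556, 145, 2994 and 7335 CPM in control replicates 1 to 4. The HADA values fell inside the control range, and control replicate 2 was far below the other 7 libraries. The mean was 3089 ± 794 CPM in HADA and 3757 ± 3004 in control (SD, n = 4). The log2 fold change was -0.28 (SE 0.85, adjusted p = 0.834 by edgeR's quasi-likelihood test, Benjamini-Hochberg adjusted). Its sign turned positive with limma (0.63) and without control replicate 4 (0.32), so no direction can be given for this gene.

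H2-D1 encodes the other classical heavy chain of this strain (ENSMUSG00000073411, chr17:35481706-35486475, plus strand). Its values were 1583, 1283, 2130 and 3783 CPM in HADA and 2053, 27.4, 167 and 918 CPM in control. Control replicates 2, 3 and 4 lay below every HADA library, and control replicate 1 lay among them. The mean was 2195 ± 1115 CPM in HADA and 791 ± 928 in control (SD, n = 4), with a log2 fold change of 1.47 (SE 1.02, adjusted p = 0.337 by edgeR's quasi-likelihood test). Leaving out control replicate 1 moved it to 2.67, and leaving out replicate 2 to 1.07. H2-D1 did not pass the test, and none of the alternatives gave an adjusted p below 0.05 (lowest 0.0962).

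With all 8 libraries, the balance of the classical pair differed between the groups, a call that rested on every HADA library. How many other gene pairs separate the groups in this way was not tested. A ratio within a library needs no scaling between libraries. For every 100 H2-K1 counts there were 58.3, 52.5, 72.1 and 89.3 H2-D1 counts in HADA replicates 1 to 4, and 45.1, 18.9, 5.58 and 12.5 in control replicates 1 to 4. Each HADA library had more H2-D1 per H2-K1 than any control library, and control replicate 1 came closest. On the log2 scale the ratio averaged -0.59 ± 0.34 in HADA and -2.68 ± 1.25 in control (SD, n = 4), a difference of 2.09 or 4.26-fold. The exact two-sided permutation test gave p = 0.029, the smallest p that 4 against 4 libraries allow. Ratios of B2m and H2-T23 to H2-K1 could not be formed, since both stood at 0. Leaving out any 1 HADA library moved the exact permutation p to 0.0571, with differences of 1.95 to 2.21, so the call was not kept. In each case the grouping that set control replicates 2, 3 and 4 against the rest gave a larger difference. The remaining HADA libraries still all lay above every control library. Leaving out any 1 control library kept the call, with differences of 1.60 (without replicate 3) to 2.60 (without replicate 1).

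**Figure D2:**
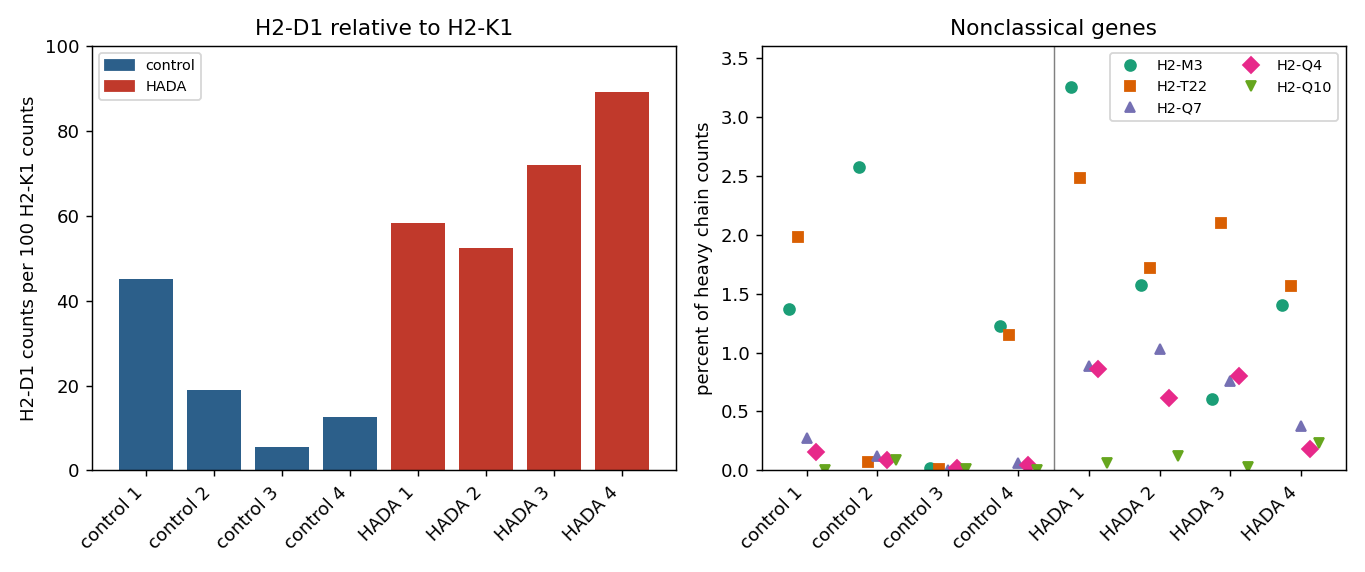
Left, H2-D1 counts per 100 H2-K1 counts in each library (bars from 0, blue control, red HADA), which range from 52.5 to 89.3 in HADA and from 5.58 to 45.1 in control. Right, each nonclassical gene as a percent of all heavy chain counts of the same library, with a symbol per gene and a vertical line between the groups. H2-Q4 and H2-Q7 are higher in every HADA library than in any control library, and H2-Q10, H2-M3 and H2-T22 overlap.

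The same libraries can be read as a division of heavy chain counts, which is a description of raw counts without length scaling. H2-K1 took 50.9% to 62.3% of them in HADA and 66.3% to 94.6% in control. H2-D1 took 32.7% to 45.4% in HADA and 5.28% to 29.9% in control, so neither range overlapped. All other heavy chains together took 7.54% or less in any library. The 2 shares therefore nearly mirror each other and restate the ratio of H2-D1 to H2-K1, not a further separation. The 5 detected nonclassical genes together took 7.54%, 5.06%, 4.30% and 3.76% in HADA and 3.77%, 2.94%, 0.0751% and 2.49% in control, and control replicate 1 came slightly above HADA replicate 4. All 10 genes held 0.436% ± 0.0682 of the total counts in HADA and 0.473% ± 0.329 in control (SD, n = 4). In single libraries this share ran from 0.365% (95% Wilson interval 0.363 to 0.368) to 0.529% (0.527 to 0.532) in HADA, and from 0.0393% (0.0383 to 0.0404) to 0.773% (0.759 to 0.787) in control. These intervals cover counting error only.

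H2-Q4 encodes a nonclassical heavy chain of the Q region that can be secreted (ENSMUSG00000035929, chr17:35598593-35604266, plus strand, with 11.9% of its span covered by Gm11131). It stood at 40.1, 24.2, 42.6 and 15.5 CPM in HADA and at 10.6, 0.157, 0.699 and 3.94 CPM in control. The groups did not overlap, and the nearest libraries were HADA replicate 4 and control replicate 1. Means were 30.6 ± 12.96 and 3.84 ± 4.78 CPM (SD, n = 4). The log2 fold change of 3.08 (SE 1.17) did not pass edgeR's quasi-likelihood test (adjusted p = 0.138). It passed with DESeq2 at 3.09 (adjusted p = 0.0231) and with edgeR without control replicate 1 at 4.37 (adjusted p = 0.0266).

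H2-Q7 encodes a heavy chain of the Qa-2 antigen, which is held in the membrane by a lipid anchor (ENSMUSG00000060550, chr17:35658131-35662749, plus strand). The HADA libraries were close together at 41.2, 40.4, 40.2 and 31.2 CPM. Control libraries spread over 18.6, 0.219, 0.0699 and 5.62 CPM, all of them below HADA. Means were 38.3 ± 4.73 in HADA and 6.14 ± 8.73 CPM in control (SD, n = 4), and the log2 fold change was 2.70 (SE 1.35, adjusted p = 0.212 by edgeR's quasi-likelihood test). Without control replicate 1 it was 4.39 (adjusted p = 0.0493).

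H2-Q10 encodes a class I chain without a membrane anchor that is known as a serum protein made mainly by the liver (ENSMUSG00000067235, chr17:35780986-35785460, plus strand). It was the lowest of the detected genes and the one that rose past the thresholds. Raw counts were 75, 117, 29 and 319 in HADA replicates 1 to 4 and 0, 5, 10 and 5 in control replicates 1 to 4. In CPM these were 2.96, 4.90, 1.71 and 19.2 against 0, 0.157, 0.349 and 0.290, and HADA replicate 4 carried most of the signal. The HADA values were above those of control replicates 2, 3 and 4. Control replicate 1 was too shallow to separate, since its floor of 3 counts corresponds to a higher CPM than that of HADA replicate 3. Means were 7.19 ± 8.10 and 0.199 ± 0.155 CPM (SD, n = 4). The log2 fold change was 4.86 (SE 0.997, adjusted p = 0.0311 by edgeR's quasi-likelihood test).

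The H2-Q10 call depended on single libraries. By edgeR's quasi-likelihood test, the adjusted p was 0.0582 without HADA replicate 1 and 0.0521 without HADA replicate 2. It was 0.103 without control replicate 2, 0.128 without control replicate 3 and 0.108 without control replicate 4. The call was kept without HADA replicate 3 (0.0365), HADA replicate 4 (0.0378) or control replicate 1 (0.0145). The log2 fold change stayed between 3.80 and 5.32 whichever library was left out. The gene entered the test through its HADA libraries, since its control counts are near 0. Of its 100-base transcript windows, 9.50% are identical to a stretch of another gene, H2-K1 and several Q genes among them, which leaves its low counts uncertain. Shared windows made up 9.85% for H2-Q7, 8.13% for H2-Q4, 6.74% for H2-T22, 2.57% for H2-T23, 2.53% for H2-D1 and 2.03% for H2-K1, and 0% for H2-M3, B2m and Tap1.

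A low level of reads over genes that Tregs do not use was taken as background. The density over 1393 olfactory and vomeronasal receptor genes was 0.0753 to 0.193 CPM per kb in HADA and 0.0537 to 0.745 in control, highest in control replicates 2 and 3. Spread over H2-Q10, that density would give 31.9%, 16.9%, 44.6% and 2.81% of its counts in HADA replicates 1 to 4. In control replicates 2, 3 and 4 it would give more counts (48.2, 36.9 and 15.6) than the 5, 10 and 5 observed. For H2-Q4, H2-Q7 and H2-T22 the observed counts were also under the background of control replicates 2 and 3, so those 2 libraries showed no signal of these genes above it. The same held for Tap1 in control replicate 2 (9 counts against 102 from the background) and for H2-M3 in control replicate 3 (21 against 35.2). Counts under the background mean that the receptor density overstated it for these genes in those libraries. Whether it also did so in the HADA libraries was not tested, so the percentages given for HADA are approximate. The background was at most 1.01% of the H2-K1 counts and 5.86% of the H2-D1 counts in any library.

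**Figure D3:**
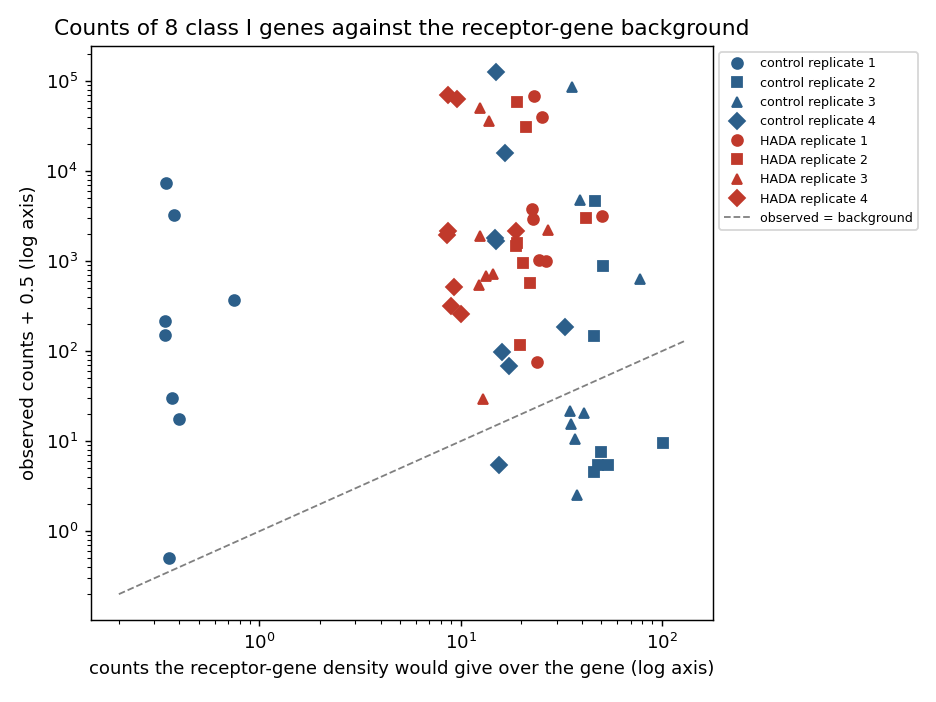
Observed counts (plus 0.5) of the 8 detected class I genes in each library against the counts that the receptor-gene density would give over the gene, both on log axes. Blue symbols are control and red symbols HADA libraries, and the dashed line marks equality. Points under the line come from control replicates 2, 3 and 4, and all HADA points lie above it.

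H2-T22 encodes the ligand of a γδ T cell subset (ENSMUSG00000056116, chr17:36348020-36353639, minus strand, with 23.4% of its span covered by A930015D03Rik). It stood at 115, 67.4, 112 and 130.1 CPM in HADA. Control replicates 1 and 4 had similar levels (136 and 97.2 CPM), and control replicates 2 and 3 had 0.125 and 0.524 CPM, from 4 and 15 counts. Means were 106 ± 27.0 and 58.5 ± 69.0 CPM (SD, n = 4), with a log2 fold change of 0.86 (SE 1.44, adjusted p = 0.695 by edgeR's quasi-likelihood test). Leaving out control replicate 1 moved it to 1.80, and leaving out replicate 2 or 3 to 0.45.

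H2-M3 encodes the chain that binds formylated peptides (ENSMUSG00000016206, chr17:37581111-37585375, plus strand). It stood at 151, 61.7, 32.4 and 117 CPM in HADA and at 93.8, 4.57, 0.734 and 104 CPM in control. The groups overlapped, with control replicates 2 and 3 again lowest. Means were 90.6 ± 53.6 and 50.7 ± 55.7 CPM (SD, n = 4), and the log2 fold change was 0.84 (SE 1.21, adjusted p = 0.647 by edgeR's quasi-likelihood test). It was 1.41 without control replicate 1, 1.51 without control replicate 4 and 0.33 without HADA replicate 1.

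Tap1 encodes one chain of the peptide transporter (ENSMUSG00000037321, chr17:34406527-34416199, plus strand, with 2.19% of its span covered by Psmb9). The 4 HADA libraries were nearly equal at 126, 128, 131 and 130.1 CPM. Control libraries ranged over 229, 0.282, 22.4 and 10.8 CPM, so control replicate 1 was above and the other 3 were below every HADA library. Means were 129 ± 2.29 and 65.7 ± 109 CPM (SD, n = 4). The log2 fold change was 0.98 (SE 1.28, adjusted p = 0.611 by edgeR's quasi-likelihood test), and without control replicate 1 it was 3.64, with an adjusted p of 0.04999.

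B2m, the light chain that every class I molecule here needs (ENSMUSG00000060802, chr2:121978167-121983564, plus strand), had 0 counts in all 8 libraries. H2-T23, the heavy chain of Qa-1 (ENSMUSG00000067212, chr17:36340665-36343747, minus strand), also had 0. The deposited span of B2m is 100% covered by Patl2 and that of H2-T23 is 100% covered by A930015D03Rik. The same held for the table at large, where 1077 of 1077 fully covered protein-coding genes had no count in any library. Nothing about the level of B2m or H2-T23 can therefore be read from these counts.

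The genes that load peptides onto class I molecules overlapped between the groups. Of 7 such genes, 6 were tested and 0 were called in either direction, with a median log2 fold change of 0.29, and 0 of the 6 had an unadjusted p below 0.05 by edgeR. Fold changes ran from -0.95 (SE 0.78) for Canx, the chaperone calnexin, to 2.09 (SE 0.96, adjusted p = 0.187 by edgeR's quasi-likelihood test) for Pdia3, the disulfide isomerase ERp57. Tap2 gave 0.62 (SE 1.23), Tapbp, the chaperone tapasin, gave 0.15 (SE 0.86), and Tapbpl stood at 0 with its span fully covered by Vamp1. DESeq2 also called 0 of them.

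The immunoproteasome subunits cut peptides that suit class I molecules, and Psme1 and Psme2 form its activator. Of 5 genes, 4 were tested and 0 were called by edgeR or DESeq2, with a median log2 fold change of 2.34, and 1 of the 4 (Psme2) had an unadjusted p below 0.05, where 12% of all genes did in that direction. Psme2 stood at 239, 194, 423 and 623 CPM in HADA and at 92.0, 0.783, 0.664 and 66.6 CPM in control. Its log2 fold change was 3.22 (SE 1.37, adjusted p = 0.166 by edgeR's quasi-likelihood test). Psmb9, whose gene adjoins Tap1, stood at 115, 58.6, 99.6 and 94.99 CPM against 53.4, 8.30, 0.384 and 1.04 CPM, with a log2 fold change of 2.57 (SE 1.28, adjusted p = 0.210 by edgeR's quasi-likelihood test). Both had all HADA libraries above all control libraries, as 9.13% of all genes had, and neither passed the test. Control replicate 1 was the highest control for each, as it was for H2-Q4, H2-Q7 and Tap1. Psmb8 gave 2.11 (SE 1.11) and Psme1 1.39 (SE 0.95), and Psmb10 stood at 0 with its span fully covered.

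**Figure D4:**
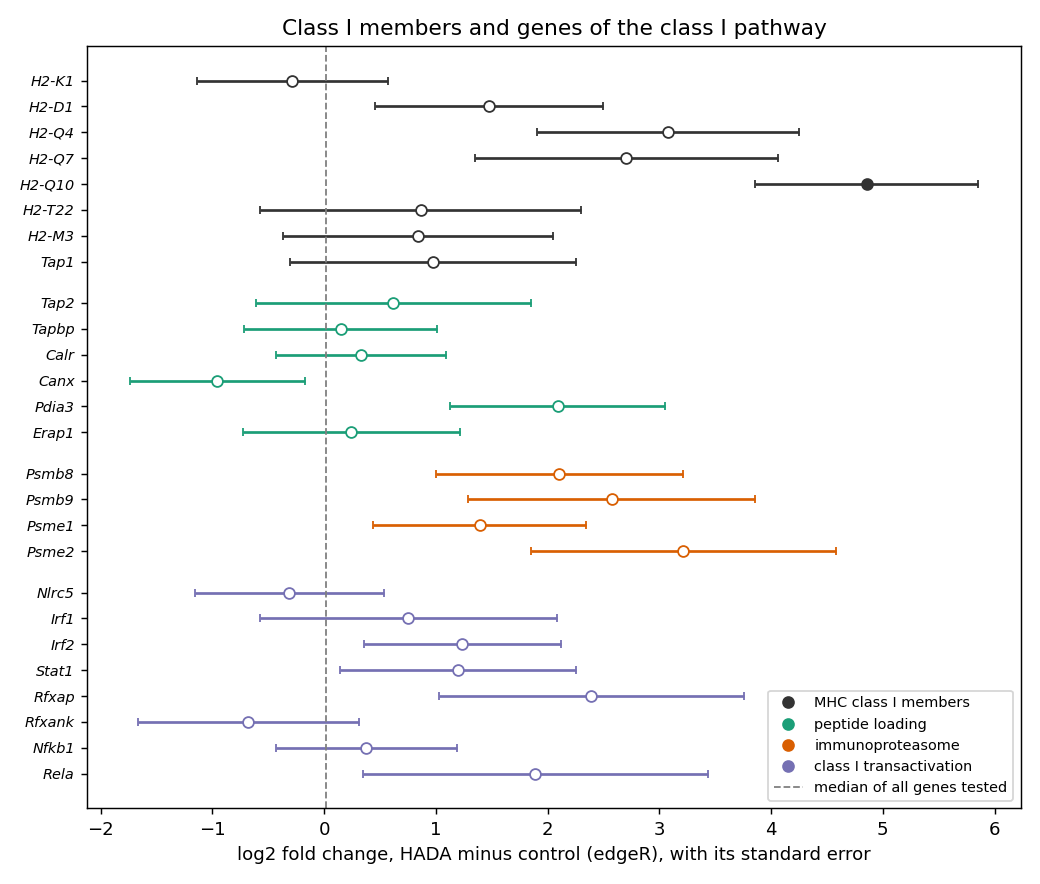
Log2 fold change, HADA minus control, of the 8 tested class I genes (black) and of the tested peptide loading (green), immunoproteasome (orange) and transactivation (violet) genes, with bars of 1 standard error from edgeR. The filled point is H2-Q10 (4.86), which passed the thresholds, open points did not, and the dashed line is the median of all genes tested (0.01).

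Of 9 regulators of class I transcription, 8 were tested and 0 were called, with a median log2 fold change of 0.98 and 0 unadjusted p below 0.05 by edgeR, and DESeq2 also called 0. Nlrc5, the transactivator that acts on the SXY module, stood at 222, 119.7, 127 and 222 CPM in HADA and 182, 16.97, 273 and 386 CPM in control, and its log2 fold change was -0.31 (SE 0.85, adjusted p = 0.815 by edgeR's quasi-likelihood test). Irf1, which binds the ISRE, gave 0.76 (SE 1.33), and Rela, a subunit of the factor that binds κB elements, gave 1.89 (SE 1.55). Rfx5 was too sparsely counted to be tested.

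Among 19 further class I and class I-like genes, 9 were tested and 1 was higher in HADA, where 1.65% of all genes were. This was Hfe, a class I-like regulator of iron uptake, at 33.3, 45.3, 54.0 and 0.481 CPM in HADA and 0.621, 1.10, 0.803 and 0.579 CPM in control. HADA replicate 4 lay below every control library, so the groups overlapped although the log2 fold change was 5.38 (SE 1.25, adjusted p = 0.0488 by edgeR's quasi-likelihood test). With limma, and without HADA replicate 1, 2 or 3 or control replicate 2, 3 or 4, 0 genes of this list were called. Without control replicate 1 it was 5, where 15.5% of all genes were called higher. The other Q genes of the list were scarcely counted: H2-Q1 did not exceed 1.22 CPM and H2-Q6 did not exceed 2.07 CPM in any library, and H2-Q2, which was not tested, reached 7.97 CPM in HADA replicate 3 and 0.470 CPM or less elsewhere.

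Of 12 receptors for class I molecules, 11 were tested and 1 was higher in HADA, against 1.65% of all genes. Cd8b1, the β chain of the CD8 coreceptor, stood at 29.0, 14.2, 45.7 and 109 CPM in HADA and at 0.621, 2.35, 1.26 and 1.85 CPM in control. The groups did not overlap, and the log2 fold change was 4.97 (SE 1.003, adjusted p = 0.0301 by edgeR's quasi-likelihood test). Without HADA replicate 1 or 3, or control replicate 2, 3 or 4, 0 receptors were called. Without control replicate 1 it was 3, where 15.5% of all genes were called higher. Cd8a, the partner chain, was at 0.158 and 0.251 CPM in HADA replicates 1 and 2 and at 27.4 and 66.2 CPM in replicates 3 and 4, with controls at 0.629 CPM or less (log2 fold change 5.95, SE 1.76, adjusted p = 0.0889 by edgeR's quasi-likelihood test). Cd160, a receptor of T and NK cells, gave 2.58 (SE 0.82) and did not pass. Its groups did not overlap either, where HADA lay wholly above control in 9.13% of all genes. Cd8a and Cd8b1 are also markers of CD8 T cells, which a CD4+CD25+ gate should not hold, and their part in the class I values was not tested.

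The profile of the classical genes over the 8 libraries was compared with 5997 genes of mean log2 CPM of at least 4, by the root mean square distance between gene-centred log2 CPM values. The genes most like H2-K1 were Vdac2 (distance 0.28), Zdhhc18 (0.30), Ifngr2 (0.34), Uba2 (0.35) and Nek7 (0.36), and the nearest class I gene, H2-D1, was at 1.31. The genes most like H2-D1 were Gabarapl2 (0.29), Dpm3 (0.35), Ctsh (0.38), Eif3f (0.39) and Nop53 (0.40), and the nearest class I gene was H2-Q4 at 1.03. The 2 sets share no gene. All points come from the same 8 libraries, so likeness includes whatever the libraries share in depth and composition.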

How the data were processed

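RNA-seq of peripheral blood Tregs was analysed in 8 libraries, grouped and numbered from their labels. The authors ran FastQC, Trimmomatic and STAR (GRCm39) and deposited raw counts per gene from featureCounts; strand and multi-mapping settings are not given in the sources used here. The deposited length equals the gene span for 100% of genes, and 0 columns were left unmapped. Names came from GENCODE M39 (98.7% of identifiers matched). Genes were tested with edgeR 4.0.16 in R 4.3.3 (TMM, filterByExpr, quasi-likelihood test, no covariates), with DESeq2 1.42.0, which the study's methods name, and limma 3.58.1 as alternatives. Log2 CPM used a prior count of 2, and ratios a pseudocount of 0.5. Single ratios were tested by exact permutation. No libraries held identical counts (0 pairs). A floor of 3 counts per library equals at most 0.000203% of a total, and it and the Wilson intervals cover counting error only.

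Named were the 10 genes, list genes past the thresholds or used as examples by role, and the 5 genes nearest to a reference profile. That profile was to be B2m; as B2m stood at 0, H2-K1 and H2-D1 were used, chosen after values were seen. The planned ratios of B2m and H2-T23 to H2-K1 were not run for the same reason. List genes shown without passing (Psmb9, Psme2, Nlrc5, Cd8a and others) were chosen after their values were seen. The class I genes and all lists were chosen with earlier results of these data known.

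Tested on simulated data (HADA against control, 21991 genes, 200 changed by a log2 of 3), edgeR recovered 99% at a dispersion of 0.2 and 0% at 0.805, the common dispersion of these libraries, where DESeq2 recovered 39% and 35.5% of its calls were false. Every simulated gene had the same dispersion, whereas the fit to the data let it differ between genes. These rates therefore do not give the power of the reported test. Libraries of the same number did not deviate together (correlations -0.21, 0.25, -0.08 and -0.003 for replicates 1 to 4), so the numbers were not taken as pairs.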

Additional observations from a re-analysis of the deposited data

Results flagged for a closer look

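Among the values of single genes and ratios in the 2 groups, 20 sets of 4 libraries were searched for a library far from the others, and about 1 would stand apart by chance. The search picked 1. It was H2-Q7 in HADA replicate 4, at 4.97 log2 CPM, where the other HADA libraries lay between 5.33 and 5.37, so that the gap to the nearest library was 0.912 of the whole range. The highest control library, replicate 1, was at 4.23.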

How the results depend on the processing

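The fold changes of H2-D1, H2-Q4, H2-Q7, H2-Q10, H2-T22, H2-M3 and Tap1 stayed positive under every alternative that gave a value. After background subtraction, H2-T22 (0.70), H2-M3 (0.68) and Tap1 (0.83) were nevertheless below the median of all genes. That of H2-K1 turned positive with limma on log2(CPM + 1) (0.63), with a replicate block (0.34) and without control replicate 4 (0.32), and ran from -0.68 to 0.32 over the libraries left out in turn. The median of all genes moved from 0.01 to -0.99 with DESeq2, -0.37 with no filter, -0.19 with DESeq2 size factors in edgeR, 0.13 with limma and 1.003 after subtracting the receptor background, and changes are relative to these.

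Genes higher in HADA numbered 363 in the fit reported, and 814 with limma, 2026 with DESeq2, 93 with at least 10 counts in every library, 60 after drawing all libraries down to the smallest total, 97 after background subtraction, 158 with a replicate block and 2647 at unadjusted p. Genes lower numbered 105, and 3296 with DESeq2, 54 with no filter, 54 drawn down, 11 with the block and 3233 at unadjusted p. As shares of all genes tested, DESeq2 called 6.27% higher and 10.2% lower, and unadjusted p by edgeR called 12% and 14.7%. The counts below are to be read beside these shares. Class I genes higher numbered 1, and 2 with DESeq2 or at unadjusted p, and 0 with at least 10 counts or drawn down (in both, H2-Q10 was not tested), background-subtracted or blocked. Under the block, H2-Q10 had a log2 fold change of 4.56 (adjusted p = 0.0725 by edgeR); after background subtraction it had 9.35 (adjusted p = 0.0678 by edgeR). Immunoproteasome genes higher numbered 0, and 1 at unadjusted p. Other class I-like genes higher numbered 1, and 4 with DESeq2, 3 at unadjusted p and 0 with limma, DESeq2 size factors, at least 10 counts, drawn down, background-subtracted or blocked. Receptors higher numbered 1, and 3 with DESeq2, 4 at unadjusted p and 0 with at least 10 counts, drawn down, background-subtracted or blocked. Receptors lower numbered 0, and 1 with DESeq2 or at unadjusted p. With at least 10 counts in every library, Hfe and Cd8b1 were not tested either, since each had 1 count in control replicate 1.

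Leaving out 1 library at a time, genes higher ranged from 28 (without control replicate 3) to 3716 (without control replicate 1) and genes lower from 1 to 4732. Class I genes higher ranged from 0 to 4, immunoproteasome genes from 0 to 1, transactivation genes from 0 to 2, other class I-like genes from 0 to 5, receptors higher from 0 to 3 and receptors lower from 0 to 1. Each of these highest counts came without control replicate 1, where 15.5% of all genes were called higher and 19.7% lower. The log2 ratio of H2-D1 to H2-K1 ranged from 1.60 to 2.60, and the share of counts on the 10 genes differed by -0.182 to 0.0629 points. The cause of these shifts was not tested. Depth limits control replicate 1, with a total of 1477431, in which H2-Q10 had 0 counts.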
